A study of Mus musculus with 13 samples.

Results

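Of 39569 regions marked by acetylated lysine 27 of histone H3 (H3K27ac) in mouse macrophages, 1016 were called in untreated cells and after 4 h of interferon-γ (IFNγ) but not after 4 h of interleukin-4 (IL-4). They were chosen as follows. Enriched stretches ("islands") that overlapped by at least 1 bp in any of 13 libraries were merged into regions, and a region was kept when it held an island in the untreated library and in the library given IFNγ for 4 h and none in the library given IL-4 for 4 h. Untreated cells had 21625 called regions in all. Of these, 1768 showed the opposite loss (an island with IL-4 and none with IFNγ at 4 h), 1741 had an island with neither cytokine and 17100 with each of them. The members were thus selected on the island calls of these 3 libraries, whose values are given as a description only. The other 10 libraries carry the comparisons.

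All libraries were chromatin immunoprecipitations with the antibody ab4729 from C57BL/6 bone marrow-derived macrophages, which are grown out of marrow in culture, taken on day 7 of differentiation. A cytokine experiment held untreated cells and cells treated with 100 ng/ml IFNγ, 10 ng/ml IL-4 or both together, each for 2 h and for 4 h; the labels name no shRNA for these 7 libraries. A knockdown experiment held cells with a scramble shRNA, with shJunB and with shCEBPb, directed against the transcription factors JunB and C/EBPβ, each untreated and after IFNγ (100 ng/ml, 4 h), and none of these 6 libraries received IL-4. Every condition had 1 library, so that no difference between 2 libraries could be set against a spread between cultures; the 95% intervals beside folds come from the exact binomial distribution of the reads and cover counting error only.

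H3K27ac marks active promoters and enhancers, and its gain or loss follows changes in enhancer activity. IFNγ signals through the kinases JAK1 and JAK2, induces IRF factors that bind ISRE elements, and drives the inflammatory, microbicidal activation of macrophages. IL-4 signals through JAK1 and JAK3 to STAT6, which drives alternative activation and can also silence enhancers that were active in resting macrophages.

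The sequences upstream of 4 gene starts inside members show what the promoters among them look like. They were chosen for display after the values were seen: Gbp2b and Ifit3 because both hold matches to the interferon-response motif, Bcl2l14 because its region had the highest IFNγ to untreated ratio, and Coq8a because it was the strongest start-site member with no island in any library given IL-4. Each is the stretch of 250 bases upstream of the annotated start, 5′ to 3′ on the gene's strand, from RefSeq on the build GRCm38.p6 (chr3:142594597-142594846, chr19:34583279-34583528, chr6:134396079-134396328 and chr1:180196021-180196270, the last on the minus strand). Capitals mark matches to 1 of the 8 motifs searched on both strands.
Gbp2b: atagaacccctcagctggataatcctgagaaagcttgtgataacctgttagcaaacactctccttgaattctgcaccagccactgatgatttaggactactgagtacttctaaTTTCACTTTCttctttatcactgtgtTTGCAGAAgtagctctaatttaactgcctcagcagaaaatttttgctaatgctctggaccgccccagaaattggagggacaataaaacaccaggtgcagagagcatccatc
Ifit3: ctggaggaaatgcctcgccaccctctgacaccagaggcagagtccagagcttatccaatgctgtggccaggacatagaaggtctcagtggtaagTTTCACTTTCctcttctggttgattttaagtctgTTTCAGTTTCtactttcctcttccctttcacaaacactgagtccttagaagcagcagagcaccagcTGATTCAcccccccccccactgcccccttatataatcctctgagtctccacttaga
Bcl2l14: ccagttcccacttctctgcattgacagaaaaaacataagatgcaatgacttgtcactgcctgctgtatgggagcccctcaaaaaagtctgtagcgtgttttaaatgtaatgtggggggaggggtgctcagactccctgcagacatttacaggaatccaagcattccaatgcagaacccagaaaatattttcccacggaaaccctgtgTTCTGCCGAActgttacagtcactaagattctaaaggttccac
Coq8a: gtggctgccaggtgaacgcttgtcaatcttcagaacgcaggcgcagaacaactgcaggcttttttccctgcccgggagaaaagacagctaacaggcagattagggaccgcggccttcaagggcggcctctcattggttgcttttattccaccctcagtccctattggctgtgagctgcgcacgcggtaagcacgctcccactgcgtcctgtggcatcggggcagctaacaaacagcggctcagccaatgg
The capitals are, for Gbp2b, an IRF/ISRE match at base 114 and a C/EBP match at base 140, and for Ifit3, IRF/ISRE matches at bases 95 and 129 and an AP-1 match at base 195, counted from the 5′ end. For Bcl2l14 they are a STAT6 match at base 208, and the Coq8a stretch holds no match. The Coq8a stretch lay inside both the untreated and the 4 h IFNγ island. The stretches of Gbp2b and Bcl2l14 lay inside the IFNγ island but outside the untreated one, and that of Ifit3 lay in neither, although islands of both libraries stood elsewhere in the same region and an island at 2 h of IL-4 covered it. Bcl2l14 and Coq8a each have another annotated start in the same member, not shown above. That of Bcl2l14 (chr6:134414178-134414427) holds no match and lay inside the untreated, 4 h IFNγ and 2 h IL-4 islands. That of Coq8a (chr1:180193486-180193735) holds an AP-1 match at base 238 and lay inside none of these islands.

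Protein-coding genes had 73 annotated starts inside members, and these were set beside 21262 starts of the whole annotation. The IRF/ISRE motif (GAAA, any 2 bases, GAAA) was present in 8 of the 73 upstream stretches (11.0%), those of Gbp2b, Gstt1, Ifi206, Ifit1bl1, Ifit3, Ifit3b, Pilrb1 and Stat4, against 2.96% of all starts and 2.11% of the 190 starts in regions with the opposite loss. Members had to hold an island at 4 h of IFNγ, whereas the opposite set had to hold none and the starts as a whole were not chosen. The part of this choice in the difference was not tested. The C/EBP motif (TTGCNNAA) was present in 18 (24.7%) against 9.09% of all starts and 9.47% in the opposite set. The AP-1 motif (TGANTCA; 6.85% against 6.13%), the STAT6 spacing (TTC, any 4 bases, GAA; 5.48% against 5.39%), the GAS spacing (TTCNNNGAA; 4.11% against 6.58%), PU.1 (GAGGAAGT; 2.74% against 2.23%) and NF-κB (GGG, any 2 bases, TTTCC; 2.74% against 1.43%) stood nearer to the share over all starts. The E-box (CACGTG) was present in 1.37% against 6.63%. The median GC content was 53.2% in the member stretches and 55.6% over all starts. It was 59.6% for starts in regions called in untreated cells and 59.0% in the opposite set. The part of base content in the motif shares was not tested. Some stretches belong to the same region or to paralogous genes, so these shares are a description, and a match is not evidence of binding.

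Library sizes, recovered from the deposited folds, ran from 21.7 to 37.4 M reads in the cytokine experiment and from 14.3 to 29.5 M reads across the knockdown libraries; the IL-4 library at 4 h had 25.5 M reads. Islands took 77.1% to 80.0% of reads in the first experiment and 65.1% to 73.0% in the second. All 8 macrophage marker genes (Csf1r, Spi1 and others) lay in islands in all 13 libraries, and none of the markers examined for macrophages, T cells, B cells, neutrophils, dendritic cells, mast cells or fibroblasts and endothelium touched a member. No marker of mast cells was called in every library, and 2 of 5 T cell, 1 of 5 neutrophil, 4 of 5 B cell, 4 of 5 dendritic cell and 2 of 6 fibroblast and endothelial markers were. Across the cytokine libraries, summed marker reads ran from 58302 to 67443 for macrophages, 948 to 2811 for T cells, 2871 to 8435 for B cells and 326 to 1089 for neutrophils. They ran from 8010 to 19641 for dendritic cells, from 0 to 45.0 for mast cells and from 1999 to 13426 for fibroblasts and endothelium; the part of other cells in the results was not tested. All read counts below are normalised, with the 14347 regions called in every library as the base.

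Members were shorter and weaker than most regions of resting cells, as were the other sets lost with a cytokine. Their median length was 6.2 kb, from 0.6 to 82.6 kb, against 8.6 kb over all regions called in untreated cells. Their median was 107 reads in untreated cells (27.9 to 2006) and 125 reads at 4 h of IFNγ (25.5 to 15968), while regions called with each cytokine had a median of 441 untreated reads. The opposite set had a median of 5.6 kb and 132 untreated reads, and regions called with neither cytokine 3.8 kb and 87.4 reads. In 828 members both libraries reached 50 reads, in 372 they reached 100, in 115 they reached 200 and in 14 they reached 500. The IFNγ library was at least 2-fold above the untreated one in 286 members and at least 2-fold below it in 184, beside 20.7% and 18.8% of all regions measured in this comparison, and within 2-fold in 546, so that loss with IL-4 went with gain, loss and little change under IFNγ. The untreated and IFNγ islands overlapped each other in 997 members and lay apart within the same region in 19.

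The 12 strongest members, ranked by the lower of the untreated and 4 h IFNγ values, all had an island at 2 h of IFNγ, and 7 of the 12 had none at 2 h of IL-4. Of all regions with 200 or more untreated reads, 94.1% had an island at 2 h of IFNγ and 94.4% at 2 h of IL-4. IFNγ at 4 h stood above untreated cells in 11 of the 12, and in 8 IFNγ at 2 h stood below both. The ranking itself chose high values in the untreated and 4 h IFNγ libraries, and neither count was made over all regions. A lower value at 2 h therefore does not set these regions apart. Of the 12, 8 lay more than 1 kb from any protein-coding gene; distances are given to place a region, and no target gene is assigned. The highest overlapped Mre11a, which encodes a nuclease of DNA double-strand break repair (chr9:14819801-14849600). It held 2006 reads in untreated cells, no island at 2 h of IL-4, 1862 reads at 2 h and 2195 at 4 h of IFNγ, and 2132 and 1438 at 2 h and 4 h of both cytokines. Neither IL-4 library called this region, while the 5 other cytokine libraries stood between 1438 and 2195. In the knockdown experiment the counts without and with IFNγ were 1042 and 1031 in scramble cells, 537 and 344 in shJunB cells and 860.3 and 1395 in shCEBPb cells, and shJunB cells were the lowest without and with IFNγ.

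A region 57.6 kb from B3gnt5, a glycosyltransferase of glycolipid synthesis (chr16:19830401-19853000), held 1563 reads in untreated cells, 343 reads at 2 h of IL-4, 663 reads at 2 h and 1882 at 4 h of IFNγ, and 954 and 2023 at 2 h and 4 h of both cytokines. At 2 h of IL-4 it was 4.56-fold below untreated cells, and with both cytokines it was above IFNγ alone at each time. Its knockdown values were 952 and 659 in scramble cells, 1510.0 and 839.7 in shJunB cells and 973 and 1026 in shCEBPb cells. A smaller member over the start of B3gnt5 itself, named after its values were seen, held 53.4 untreated reads, 81.6 at 2 h of IL-4 and 140.3 at 4 h of IFNγ.

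The member 29.6 kb from Cop1, a ubiquitin ligase (chr1:159185401-159202600), had no island in any of the 4 libraries given IL-4, alone or with IFNγ. It held 754 reads in untreated cells, 296 at 2 h of IFNγ and 2070.2 at 4 h. Without and with IFNγ it held 617 and 1312 in scramble cells, 446 and 1315 in shJunB cells and 586 and 1208 in shCEBPb cells, and all 3 IFNγ libraries lay above all 3 untreated ones. In the fit over these 6 libraries its log2 change with IFNγ was 1.25 (SE 0.13, edgeR adjusted p = 0.00185). The region 159 kb from Pard3, a cell polarity protein (chr8:127770801-127786600), held 782 reads without cytokine, no island at 2 h of IL-4, 228 reads at 2 h and 1185 at 4 h of IFNγ, and no island at 2 h and 423 reads at 4 h of both cytokines. Its knockdown values, 283 and 399 in scramble cells, 416 and 357 in shJunB cells and 144 and 313 in shCEBPb cells, overlapped between treatments. The log2 change with IFNγ was 0.47 (SE 0.27, edgeR adjusted p = 0.205).

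Inside Cdyl2, a chromodomain protein (chr8:116608401-116639800), the values were 734 reads in untreated cells, no island at 2 h of IL-4, 1223 reads at 2 h and 3226 at 4 h of IFNγ, and 335 and 879 at 2 h and 4 h of both cytokines. Addition of IL-4 to IFNγ at 2 h went with 3.65-fold fewer reads than IFNγ alone (ratio 0.274, 95% interval 0.242 to 0.310). The 3 IFNγ libraries of the knockdown experiment lay above the 3 untreated ones, at 828 and 2172 in scramble cells, 675 and 2307 in shJunB cells and 884 and 2805 in shCEBPb cells. The log2 change was 1.63 (SE 0.10, edgeR adjusted p = 0.000618).

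Near Nrp1, a co-receptor for semaphorins and VEGF, 2 members lay apart from genes. The one 237 kb from the gene (chr8:128091401-128121600) held 676 reads in untreated cells, no island at 2 h of IL-4, 656 reads at 2 h and 2924 at 4 h of IFNγ, and 233 and 1412 at 2 h and 4 h of both cytokines. The one 359.8 kb away (chr8:127975401-127998800) held 649 reads without cytokine, 56.1 reads at 2 h of IL-4, 326 reads at 2 h and 1629.9 at 4 h of IFNγ, and 183 and 644 at 2 h and 4 h of both cytokines. Each was lowest or not called with IL-4, lower with both cytokines than with IFNγ alone at each time, and highest at 4 h of IFNγ. In the knockdown experiment the first passed the test for IFNγ and the second did not, with a log2 change of 0.81 (SE 0.10, edgeR adjusted p = 0.00310) against 0.03 (SE 0.14, edgeR adjusted p = 0.890) for the second; the difference between them was not tested.

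Close to Nr3c1, the gene of the glucocorticoid receptor, a member at 19.2 kb (chr18:39538601-39566600) held 561 reads in untreated cells, 64.3 reads at 2 h of IL-4, 1331 reads at 2 h and 1146 at 4 h of IFNγ, and 492 and 205 at 2 h and 4 h of both cytokines. It was 20.7-fold lower with IL-4 than with IFNγ at 2 h, and 2.71-fold lower with both cytokines than with IFNγ alone. Its knockdown values were 613 and 944 in scramble cells, 914 and 800.2 in shJunB cells and 765 and 798 in shCEBPb cells. The log2 change with IFNγ was 0.18 (SE 0.17, edgeR adjusted p = 0.431). This region was 1 of 4 members within 171 kb around Nr3c1, 3 of which were called at 2 h of IFNγ and 1 at 2 h of IL-4.

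Other strong members followed 2 patterns. The region 11.8 kb from Lamc1, a laminin chain (chr1:153344601-153357800), held 529 reads in untreated cells, no island at 2 h of IL-4, 1769 reads at 2 h and 1025 at 4 h of IFNγ, and 1019 and 311 at 2 h and 4 h of both cytokines. Over the start of Dlg1, a scaffold of cell polarity (chr16:31751401-31762200), the values were 1023 reads without cytokine, no island at 2 h of IL-4, 505 reads at 2 h and 631 at 4 h of IFNγ, and 444 and 302 at 2 h and 4 h of both cytokines. At Rtp4, an interferon-inducible chaperone of membrane receptors (chr16:23550601-23567600), they were 526 reads in untreated cells, 262 reads at 2 h of IL-4, 162 reads at 2 h and 999.9 at 4 h of IFNγ, and 256 and 477 at 2 h and 4 h of both cytokines. Lamc1 and Dlg1 had no island with IL-4 at either time, whereas Rtp4 kept one at 2 h that stood above the value with IFNγ at 2 h.

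**Figure D1:**
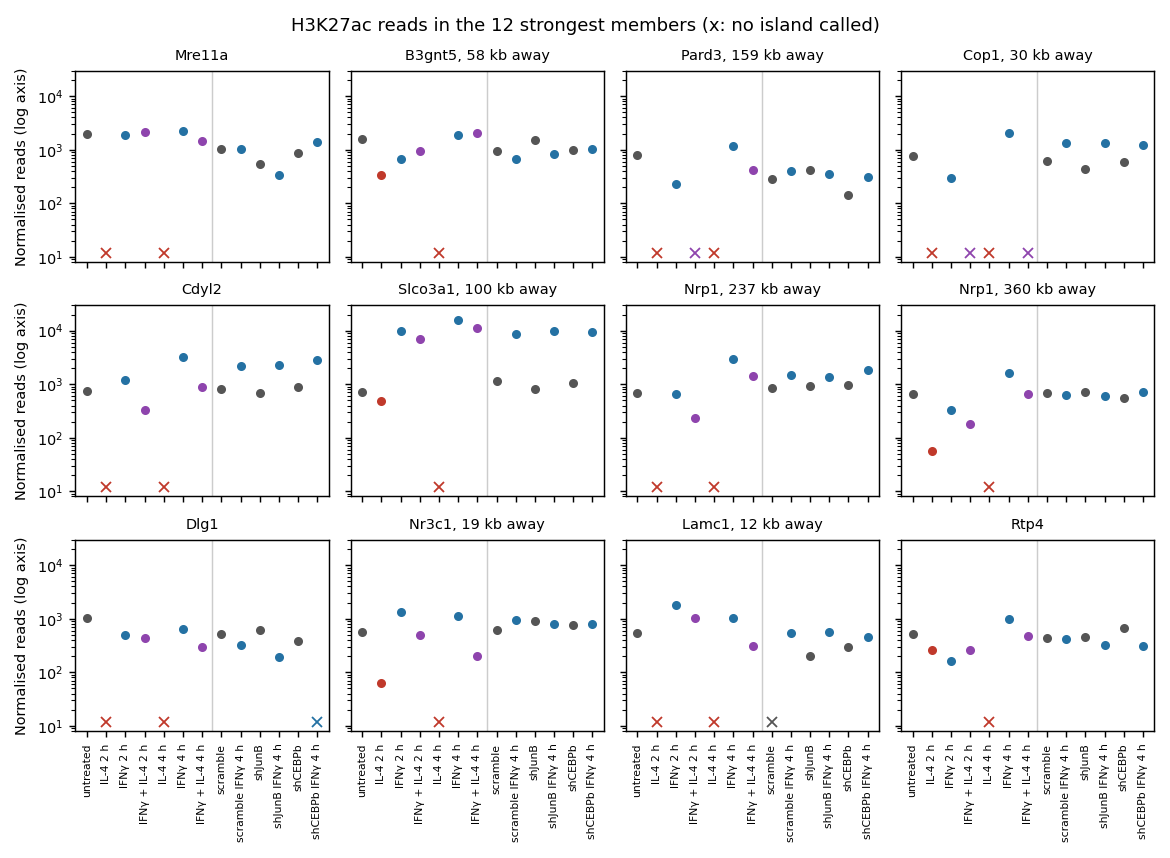
Normalised H3K27ac reads (log axis) of the 12 strongest members in each of the 13 libraries, titled by the gene or the nearest gene with its distance; grey points are libraries without cytokine, red IL-4, blue IFNγ and purple both, and an x near the floor marks a library with no island, which is not a measured value. All 12 have a blue point at 2 h of IFNγ, and 7 of the 12 have a red x at 2 h of IL-4.

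The 5 members with the largest ratios of 4 h IFNγ to untreated reads held between 43.7 and 120.2 reads in untreated cells. The region over Bcl2l14, a member of the Bcl-2 family (chr6:134382801-134417000), held 64.3 reads in untreated cells, 87.7 reads at 2 h of IL-4, 331 reads at 2 h and 5506 at 4 h of IFNγ, and 212 and 2086 at 2 h and 4 h of both cytokines. The ratio of 4 h IFNγ to untreated was 85.6-fold, a description only, because both libraries chose the members and this ratio chose the region. It compares reads in called islands, and the IFNγ island covered sequence that the untreated island did not. The region over Sun3, a nuclear envelope protein (chr11:9044201-9064000), held 43.7 reads without cytokine, no island at 2 h of IL-4, 1092 reads at 2 h and 2479.8 at 4 h of IFNγ, and 734 and 2050.1 at 2 h and 4 h of both cytokines. Reads at both were higher at 4 h than at 2 h of IFNγ, and with both cytokines at 4 h they were 2.64-fold and 1.21-fold lower than with IFNγ alone.

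The longest member, of 82.6 kb, lay 100.2 kb from Slco3a1, an organic anion transporter (chr7:74655001-74737600), and was 1 of the 12 strongest, with 708 reads in untreated cells, 485 reads at 2 h of IL-4, 9905 reads at 2 h and 15968 at 4 h of IFNγ, and 6949 and 11262 at 2 h and 4 h of both cytokines. The next member, 52.8 kb from the same gene (chr7:74607601-74653800), had 1 of the 5 largest ratios and held 120.2 reads in untreated cells, 106 reads at 2 h of IL-4, 3261 reads at 2 h and 5359 at 4 h of IFNγ, and 1713 and 3650.3 at 2 h and 4 h of both cytokines. With IL-4 at 2 h the first was 1.46-fold below its untreated value and the second 1.13-fold below, and they were 20.4-fold and 30.7-fold below IFNγ at the same time. The absence of an island at 4 h of IL-4 in an interval of this length is a call and not a read count, and the deposited islands give no value there.

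The highest ratios also included those at Herc1, a large ubiquitin ligase (chr9:66379401-66396800), with 51.0 reads without cytokine, no island at 2 h of IL-4, 547 reads at 2 h and 1910.5 at 4 h of IFNγ, and 430.4 and 935 at 2 h and 4 h of both cytokines. Another lay 52.8 kb from Myo10, a myosin of filopodia (chr15:25541801-25569800), with 71.6 reads in untreated cells, no island at 2 h of IL-4, 632 reads at 2 h and 2847 at 4 h of IFNγ, and 356 and 872 at 2 h and 4 h of both cytokines. At the other end, 3 members were 9.62-fold to 11.2-fold lower at 4 h of IFNγ than in untreated cells. They lay near the olfactory receptor gene Olfr211 (569 untreated and 51.0 IFNγ reads), in Cnot6l, a subunit of the deadenylase complex (521 and 50.3), and 117 kb from Snx13, a sorting nexin (649 and 67.5). None of these 3 had an island in a library given both cytokines, and none had one in any IFNγ library of the knockdown experiment, although untreated scramble and shJunB cells called all 3.

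No island in any of the 3 further libraries given IL-4 was found for 232 members (22.8%), beside 20.2% of regions with the opposite loss, 77.1% of those called with neither cytokine and 8.76% of all other regions called in untreated cells. The strongest after the Cop1 region lay 32.2 kb from Tmem72 (465 untreated and 311 IFNγ reads at 4 h), 757 kb from Agtr1b, an angiotensin receptor (261 and 243), in Macc1, a regulator of the Met receptor (242 and 459.8), in Hook3, a dynein adaptor (290.1 and 209), and over the start of Coq8a, an enzyme of coenzyme Q synthesis (206 and 278). These 5 also had no island at 2 h of IFNγ. Coq8a nevertheless was called in all 6 knockdown libraries, at 425 and 432 in scramble cells, 446 and 501 in shJunB cells and 490.2 and 513 in shCEBPb cells. These values overlapped between treatments, and the log2 change with IFNγ was 0.11 (SE 0.10, edgeR adjusted p = 0.413).

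Among the lists of genes examined, counting genes within 1 kb of a region, 2 lists of interferon-inducible genes touched members in 2 of 12 and 3 of 24 cases, beside 548 of 13052 protein-coding genes with an untreated region (4.20%). These are small counts, and the choice of members itself required an island with IFNγ. Among 12 interferon-inducible GTPases of the Gbp and Irg type, which attack the vacuoles of intracellular pathogens, 2 did. The Gbp2b region (chr3:142582601-142609000) held 251 reads in untreated cells, no island at 2 h of IL-4, 1123 reads at 2 h and 2029 at 4 h of IFNγ, and 632 and 1952 at 2 h and 4 h of both cytokines. Its knockdown values without and with IFNγ were 285 and 1014 in scramble cells, 237 and 1287 in shJunB cells and 290.0 and 1372 in shCEBPb cells. The log2 change was 2.19 (SE 0.15, edgeR adjusted p = 0.000643). The Gbp8 region (chr5:105050801-105067200) held 77.7 reads without cytokine, 224 reads at 2 h of IL-4, 1354 reads at 2 h and 1426 at 4 h of IFNγ, and 1119 and 1573 at 2 h and 4 h of both cytokines. The knockdown values there were 56.2 and 584 in scramble cells, 69.2 and 809 in shJunB cells and 46.1 and 851 in shCEBPb cells. The log2 change was 3.73 (SE 0.20, edgeR adjusted p = 0.000517). At both genes all 3 IFNγ libraries of that experiment lay above all 3 untreated ones. At Gbp8 IL-4 alone at 2 h stood 2.89-fold (95% interval 2.18 to 3.88) above untreated cells and the island was absent at 4 h. The Gbp and Ifit families have close paralogs, and reads shared between copies may have been placed differently or dropped, so the values at these genes are uncertain.

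Of 24 antiviral genes with an untreated region, 3 touched a member. At Ifit3, a cytosolic binder of viral RNA complexes (chr19:34579401-34587400), the counts were 42.5 reads in untreated cells, 47.9 reads at 2 h of IL-4, 420.3 reads at 2 h and 272 at 4 h of IFNγ, and 308 and 142 at 2 h and 4 h of both cytokines. At Ifi44, a type I interferon target (chr3:151746001-151751800), they were 47.3 reads in untreated cells, 74.5 reads at 2 h of IL-4, 267 reads at 2 h and 551 at 4 h of IFNγ, and 349.7 and 239 at 2 h and 4 h of both cytokines. In Ddx58, which encodes the RNA sensor RIG-I (chr4:40232401-40235600), they were 86.2 reads without cytokine, no island at 2 h of IL-4, 87.8 reads at 2 h and 72.8 at 4 h of IFNγ, and 81.7 reads at 2 h and no island at 4 h of both cytokines. Ifit3 and Ifi44 were 6.39-fold and 11.6-fold higher at 4 h of IFNγ than in untreated cells, with untreated and IL-4 values side by side below 100, whereas Ddx58 stood between 72.8 and 87.8 wherever it was called in the cytokine experiment. In the knockdown fit the change with IFNγ was 1.23 (SE 0.15, edgeR adjusted p = 0.00293) for Ifi44 and 0.68 (SE 0.25, edgeR adjusted p = 0.0827) for Ifit3.

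Other start-site members, named after their values were seen, included Ifnb1, the gene of interferon-β (chr4:88509201-88532000), with 328 reads in untreated cells, no island at 2 h of IL-4, 367 reads at 2 h and 2013 at 4 h of IFNγ, and 147 and 443 at 2 h and 4 h of both cytokines. With both cytokines it was lower than with IFNγ alone at each time, and the knockdown values were 540.3 and 1139 in scramble cells, 443 and 1479 in shJunB cells and 478 and 1068 in shCEBPb cells. Lpar1, a receptor of lysophosphatidic acid (chr4:58527001-58558000), held 60.7 reads in untreated cells, 88.8 reads at 2 h of IL-4, 394 reads at 2 h and 2039 at 4 h of IFNγ, and 231 and 272 at 2 h and 4 h of both cytokines. Paralogs of the Ifit cluster (Ifit3b, Ifit1bl1), Ifi206, Casp12, Stat4 and Trim6 also had their start in a member.

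The lists of signalling genes touched members at 5.0% and 10.0%, beside 4.20% of all genes. In Jak1, the kinase shared by the IFNγ and IL-4 receptors and 1 of 20 regulators of interferon signalling with an untreated region, a member (chr4:101211201-101226800) held 302 reads without cytokine, no island at 2 h of IL-4, 435 reads at 2 h and 469.6 at 4 h of IFNγ, and 579 and 225 at 2 h and 4 h of both cytokines, with a log2 change of 0.20 (SE 0.22, edgeR adjusted p = 0.500) in the knockdown fit. Of 20 feedback regulators, 2 touched a member. Spred1, an inhibitor of Ras signalling (chr2:117162601-117187000), held 286 reads in untreated cells, 247 reads at 2 h of IL-4, 2079 reads at 2 h and 1763 at 4 h of IFNγ, and 2014 and 1343 at 2 h and 4 h of both cytokines. Beside Dusp10, a phosphatase of stress kinases (chr1:184076001-184088000), the values were 367 reads in untreated cells, no island at 2 h of IL-4, 515 reads at 2 h and 623 at 4 h of IFNγ, and 279 and 294 at 2 h and 4 h of both cytokines. The knockdown fit gave changes with IFNγ of 1.53 (SE 0.10, edgeR adjusted p = 0.000634) and 0.90 (SE 0.25, edgeR adjusted p = 0.0361). With IL-4 added at 2 h, Spred1 did not differ from IFNγ alone beyond counting error (ratio 0.969, 95% interval 0.910 to 1.03) and Dusp10 was 1.85-fold lower.

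The regions at Mlkl and Plin2 had few reads. Mlkl, the executor of necroptosis (chr8:111321801-111327200), held 30.3 reads in untreated cells, no island at 2 h of IL-4, no island at 2 h and 235 reads at 4 h of IFNγ, and no island at 2 h and 152 reads at 4 h of both cytokines. Plin2, a coat protein of lipid droplets (chr4:86631201-86634200), held 92.2 reads in untreated cells, no island at 2 h of IL-4, no island at 2 h and 49.5 reads at 4 h of IFNγ, and no island at 2 h and 35.4 reads at 4 h of both cytokines.

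Several other programs had no gene in a member. No gene with an untreated region touched one in the lists for alternative activation (29 genes), macrophage identity (20), classical activation (19), NF-κB and inflammation (26), Toll-like receptors and their adaptors (23), AP-1 and C/EBP factors (20), MHC class II and antigen processing (18), cholesterol synthesis (20), glycolysis and hypoxia (20) or the cell cycle (20). Set beside the share of 4.20% over all genes, lists of this size are too short for such a count to set them apart.

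Members lay mostly away from gene starts. A start of a protein-coding gene stood within 1 kb of 59 members (5.81%), against 36.2% of all regions called in untreated cells and 44.0% of those called with each cytokine. Another 532 members (52.4%) touched a gene without its start and 425 (41.8%) touched none, against 39.8% and 24.0% of all regions called in untreated cells. The opposite set had 9.62% at starts, and the regions called with neither cytokine had 3.33%. The median distance to a start was 40.3 kb for members and 11.7 kb for all regions called in untreated cells. Members with at least 100 reads in both libraries had 6.99% at starts.

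**Figure D2:**
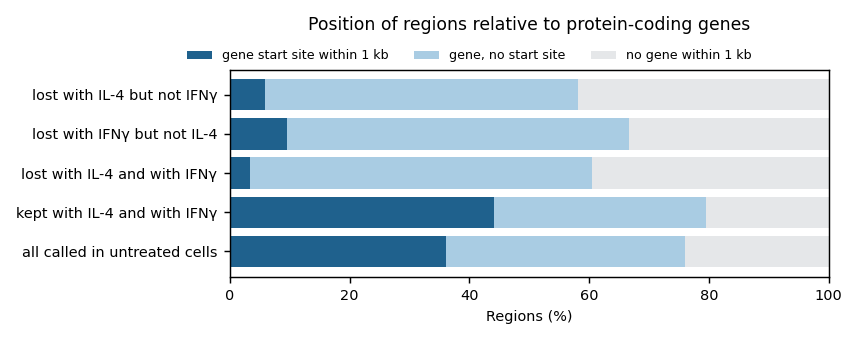
Share of regions (%) with a protein-coding gene start within 1 kb, touching a gene without its start, or with no gene within 1 kb, for members (top), the 3 other combinations of calls with IL-4 and IFNγ at 4 h, and all regions called in untreated cells. The dark segment is 5.81% in members and 36.2% in all regions called in untreated cells.

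Protein-coding genes within 1 kb of a member numbered 548. Fat3, a giant cadherin, held 6 members, and Cdk14, a cyclin-dependent kinase, and Col25a1, a transmembrane collagen, held 4 each. Another member stood within 100 kb of 301 members (29.6%), against 34.1% for the opposite set and 43.2% for regions called with neither cytokine. Runs of 4 members spaced by at most 100 kb occurred at 7 places, including Macc1, Tmem178, Nr3c1, Col25a1 and Fat3. At Macc1 none of the 4 was called at 2 h of either cytokine, and at Fat3 all 4 were called at 2 h of IFNγ and none at 2 h of IL-4. By chromosome, members made up from 3.51% (chromosome 11) to 6.66% (chromosome 14) of the regions called in untreated cells, leaving out the Y chromosome with 0 of 5.

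The loss of members with IL-4 was present at 2 h, in a library that the choice did not use. An island at 2 h of IL-4 was called in 202 members (19.9%), against 82.5% of all regions called in untreated cells. At 2 h of IFNγ 637 members (62.7%) had one, against 81.2%. IFNγ alone at 2 h without IL-4 at 2 h was the pattern of 459 members, the reverse pattern that of 24, both cytokines called 178 and neither 355. Among the 20609 other regions called in untreated cells the same 2 patterns had 632 and 1344 regions. The set with the opposite loss at 4 h mirrored this, with 87 and 709.

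The low share at 2 h of IL-4 was found in every range of untreated reads examined. Members with under 100 untreated reads had an island at 2 h of IL-4 in 17.1% of cases, those with 100 to 200 in 20.1% and those with 200 or more in 24.9%, against 49.4%, 71.9% and 94.4% of all regions in the same ranges. At 2 h of IFNγ the same ranges gave 57.0%, 64.0% and 72.2% of members, against 46.5%, 68.8% and 94.1%. Members at gene starts were called at 2 h of IL-4 more often, in 24 of 59 (40.7%), than members in genes (18.8%) or away from genes (18.4%). All regions called in untreated cells had the same order, with 97.7%, 74.7% and 72.5%. At 2 h of IFNγ the members' shares were 79.7%, 61.3% and 62.1%, beside 96.2%, 73.3% and 71.8% of all these regions.

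With both cytokines together, most members kept an island. At 2 h 587 (57.8%) and at 4 h 638 (62.8%) had one, against 83.2% and 84.6% of all regions called in untreated cells. Both combined libraries called 466 members (45.9%, against 79.6% of all regions called in untreated cells) and neither called 257 (25.3%, against 11.9%). Of the 459 members called at 2 h with IFNγ and not with IL-4, 363 (79.1%) were called at 2 h with both cytokines and 96 were not. This was close to the 80.3% of all regions called in untreated cells with the same calls at 2 h, which include these members. Among the regions that were not members it was 513 of 632. The combined libraries were also deeper (26.9 and 37.4 M reads) than those with IL-4 alone (23.6 and 25.5 M reads), and the part of depth in these calls was not tested.

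The knockdown libraries, none of which was given IL-4, called members at similar rates without and with IFNγ. Untreated scramble, shJunB and shCEBPb cells had an island in 70.5%, 67.1% and 72.9% of members (against 89.9%, 89.1% and 91.3% of all regions called in untreated cells). After IFNγ the shares were 68.7%, 70.5% and 71.9% (against 81.4%, 82% and 83.1%). All 6 libraries called 405 members (39.9%, against 74.2% of all regions called in untreated cells) and none called 75 (7.38%, against 4.32%). Over all 13 libraries, 68 members were called in fewer than 4 and 86 in 12, the most that the rule allows. The same counts over other regions were not made, so these do not set members apart. The member at Endou, an endoribonuclease (chr15:97715601-97734000), was among the 5 whose lowest value in these libraries was highest, at 980.1 and 1329.9 in scramble cells, 828 and 1264 in shJunB cells and 985 and 1434 in shCEBPb cells. Its log2 change with IFNγ was 0.55 (SE 0.08, edgeR adjusted p = 0.00517).

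**Figure D3:**
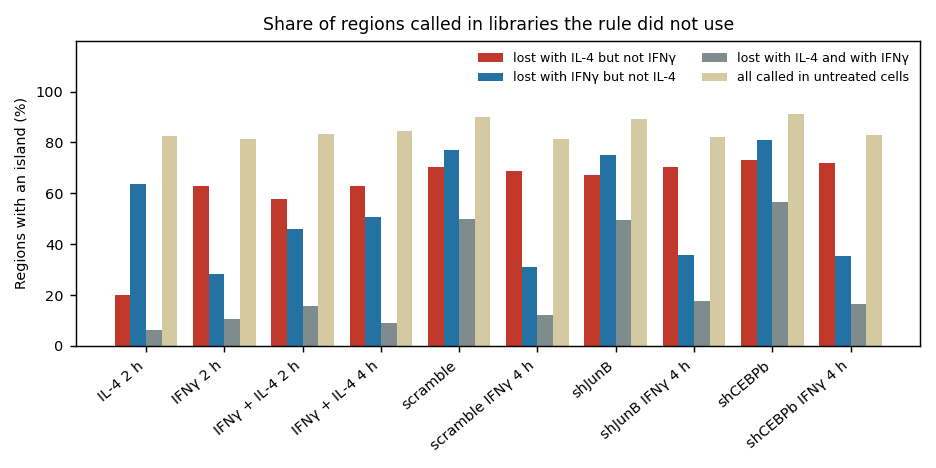
Share of regions (%) with an island in each of the 10 libraries not used to choose them, for members (red), the opposite loss (blue), regions called with neither cytokine at 4 h (grey) and all regions called in untreated cells (sand). Members stand at 19.9% with IL-4 at 2 h and between 57.8% and 72.9% in the other 9 libraries.

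Read counts at 2 h went the same way as the calls. A region was counted as different when 2 libraries differed at least 2-fold and the higher had at least 50 normalised reads, and where a library had no island the 5th percentile of the reads in all its islands was used. Between IL-4 and IFNγ at 2 h, 661 members had an island in at least 1 library, and IL-4 was lower in 383 and higher in 3, beside 19.4% and 11.6% of all regions. After control reads were subtracted it was lower in 310 and higher in 49, beside 20.6% and 14.4%. Their median log2 ratio was -1.26, against -0.05 over all regions. In 459 of the 661 the IL-4 library had no island, and in 24 the IFNγ library had none. Of the 178 called in both, IL-4 was lower in 155 (87.1%), against 47.8% of all such regions. It was at least 2-fold lower in 106 (59.6%), against 15.2%. Per kb of called length 51 of the 178 were at least 2-fold lower, against 5.35% of all such regions. Set beside untreated cells, whose library chose the members, IL-4 at 2 h was at least 2-fold lower in 442 members and higher in 4, beside 18.5% and 14.2% of all regions. IFNγ at 2 h was lower in 219 and higher in 220, beside 16.6% and 19.9%. Both cytokines at 2 h were lower in 358 and higher in 189, beside 19.7% and 19%. These counts include members with no island at 2 h, where the 5th percentile was used. Of 637 members called at 2 h of IFNγ, 406 were above untreated cells and 231 below (median log2 ratio 0.42). Of 587 called at 2 h of both cytokines 343 were above and 244 below (0.31). Of 202 called at 2 h of IL-4 50 were above and 152 below (-0.53). The medians over all such regions were -0.02, -0.03 and -0.02.

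IL-4 added to IFNγ at 2 h went with a smaller decrease. Of 703 members with an island in at least 1 of these libraries, 143 were lower and 19 higher with both cytokines than with IFNγ alone, beside 8.99% and 6.26% of all regions. After control reads were subtracted 124 (17.6%) were lower and 29 (4.13%) higher, beside 13.6% and 7.16%, so that the excess of lower members depended on this step. The median log2 ratio was -0.28, against -0.04. The value used for a missing island was lower with both cytokines (43.8 normalised reads) than with IFNγ (62.6), which lowers this ratio. Over regions called in both libraries the median was -0.20 for members, against -0.006. Among the 521 members called in both, 329 were lower (63.1%, against 50.6% of all such regions), and 74 were at least 2-fold lower (14.2%, against 6.68%). Per kb of called length 4 were lower (0.768%) and 7 higher (1.34%), beside 0.417% and 1.65% of all such regions. Examples are the Cdyl2, Nrp1 and Nr3c1 regions above among those lower, and B3gnt5 and Rtp4 with more reads in the combined library.

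**Figure D4:**
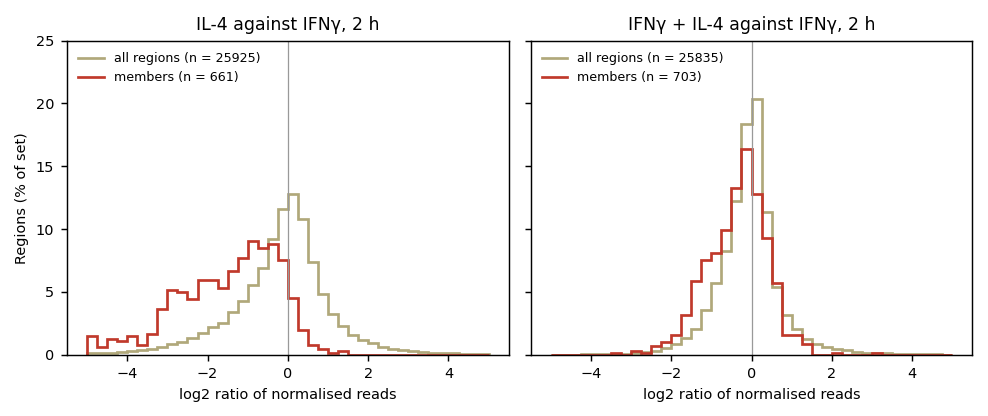
Distribution of log2 ratios of normalised reads at 2 h, IL-4 against IFNγ (left) and both cytokines against IFNγ (right), as the share of regions (%) in bins of 0.25, for members (red) and all regions with an island in at least 1 of the 2 libraries (sand); values beyond 5 are placed in the end bins. Where a library had no island, the 5th percentile of the reads in its islands was used. The members' median is -1.26 on the left and -0.28 on the right, against -0.05 and -0.04 for all regions.

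From 2 h to 4 h with both cytokines, members were found to differ in either direction, with an order that depended on the scale. Of 759 with an island at 1 or both of these times, 151 were at least 2-fold higher and 178 at least 2-fold lower at 4 h, beside 10.8% and 12.4% of all regions, and the median log2 ratio was -0.10 against -0.03. Library totals as the scale gave 164 higher and 159 lower, beside 12.3% and 10.9% of all regions. Reads per kb of island length gave 6 higher and 61 lower, beside 0.724% and 4.92% of all regions. Bcl2l14 and the nearer Nrp1 region were 9.83-fold (95% interval 8.56 to 11.3) and 6.06-fold (95% interval 5.29 to 6.96) higher at 4 h. Lamc1, Jak1 and Nr3c1 were 3.28-fold, 2.57-fold and 2.40-fold lower. At 4 h the combined library is set beside IFNγ alone as values only, because the latter chose the members: it was at least 2-fold lower in 368 members and higher in 35, beside 14.2% and 9.42% of all regions.

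In the knockdown experiment more members rose than fell with IFNγ. The edgeR fit took the 3 shRNA backgrounds as an additive term, so that the 3 pairs of libraries served as replicates of IFNγ, and covered the 405 members called in all 6 libraries. Of these, 131 (32.3%) were higher and 50 (12.3%) lower with IFNγ at an adjusted p under 0.05, beside 22.7% and 21.9% of the 17047 regions tested. The members' median log2 change was 0.28 against 0.01 over all regions. Members had to hold an island at 4 h of IFNγ in the cytokine experiment, whereas the 17047 regions did not. The part of this choice in the difference was not tested. The p-values measure the spread between these 3 backgrounds, which the labels do not tie to separate animals. Members without an island in 1 or more of these libraries were not tested. Among the 181 members that passed in either direction, 120 (66.3%) had no island at 2 h of IL-4. The share over all members was 80.1%, but these include members that were not tested. The share among the 405 tested was not computed, so the 2 shares are not directly comparable.

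The smallest adjusted p-values among members that rose were those of a region 3.32 kb from Myl2, a myosin light chain (chr5:122076601-122089400), the Myo10 region, a region 193 kb from Grpr, a neuropeptide receptor (chrX:163291001-163320600), Bcl2l14 and the longer Slco3a1 region. Near Myl2 the counts without and with IFNγ were 67.0 and 687 in scramble cells, 64.5 and 534 in shJunB cells and 87.1 and 801 in shCEBPb cells, all 3 IFNγ values lying above all 3 untreated ones, and the log2 change was 3.22 (SE 0.12, edgeR adjusted p = 0.000402). At Bcl2l14 they were 106 and 1487 in scramble cells, 57.8 and 1571 in shJunB cells and 73.1 and 1414 in shCEBPb cells. The change was 4.28 (SE 0.20, edgeR adjusted p = 0.000474). At the longer Slco3a1 region they were 1170.3 and 8484 in scramble cells, 812 and 9688 in shJunB cells and 1055 and 9317 in shCEBPb cells. The change was 3.21 (SE 0.16, edgeR adjusted p = 0.000480). The Myo10 and Grpr regions rose by 2.25 (SE 0.09, edgeR adjusted p = 0.000413) and 2.78 (SE 0.13, edgeR adjusted p = 0.000472).

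Members that fell were led by the start of Mfsd6, a membrane protein of the major facilitator family (chr1:52721001-52735600), at 757 and 255 in scramble cells, 719 and 214 in shJunB cells and 606 and 232 in shCEBPb cells. The log2 change was -1.55 (SE 0.11, edgeR adjusted p = 0.000809). In the cytokine experiment this region held 780.4 reads without cytokine, 337 reads at 2 h of IL-4, 635 reads at 2 h and 131 at 4 h of IFNγ, and 168 and 174 at 2 h and 4 h of both cytokines, so that untreated cells were highest in both experiments. Inside Col4a2, a basement membrane collagen (chr8:11332601-11351800), the counts were 644 and 272 in scramble cells, 698 and 295 in shJunB cells and 843 and 374 in shCEBPb cells. The change was -1.20 (SE 0.09, edgeR adjusted p = 0.000849). Regions 87.6 kb from Nxt1 and 6.19 kb from Tecpr1, and one inside Antxr1, a receptor of anthrax toxin, changed by -1.43 (SE 0.11, edgeR adjusted p = 0.000881), -1.65 (SE 0.16, edgeR adjusted p = 0.00135) and -1.12 (SE 0.13, edgeR adjusted p = 0.00219).

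**Figure D5:**
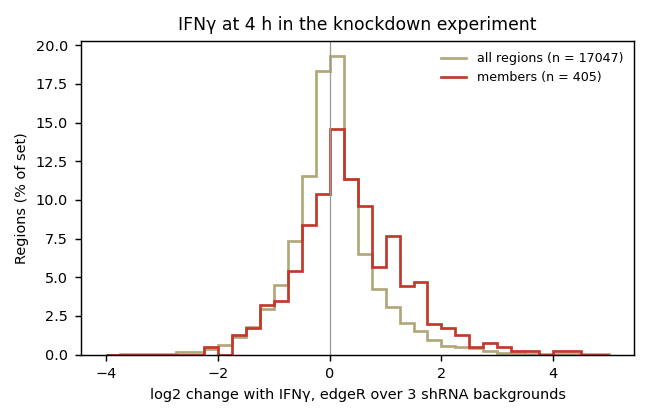
Distribution of the log2 change with IFNγ at 4 h in the knockdown experiment, from the edgeR fit over 6 libraries, as the share of regions (%) in bins of 0.25, for members (red, n = 405) and all regions tested (sand, n = 17047). The members' median is 0.28 against 0.01, with 131 members higher and 50 lower at an adjusted p under 0.05. Members, unlike all regions tested, were required to hold an island at 4 h of IFNγ in the cytokine experiment.

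No member passed the edgeR test for shJunB or for shCEBPb against scramble, beside 0% of all regions in each direction. At an unadjusted edgeR p under 0.05, 56 of the 405 members tested were higher and 25 lower with shJunB. With shCEBPb 40 were higher and 6 lower. The same unadjusted counts over all regions were not made, so these do not set members apart. DESeq2 called 16 members higher and 8 lower for shJunB, beside 2.39% and 1.23% of all regions, and 2 higher and 0 lower for shCEBPb, beside 0.434% and 0.00587%. At Mre11a, where shJunB cells were the lowest, shJunB gave a log2 difference of -1.21 (SE 0.31, edgeR adjusted p = 0.191). H3K27ac does not measure how far either factor was depleted, and the fit has 2 residual degrees of freedom, so that these counts cannot show that JunB or C/EBPβ has no effect on members.

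At the edge of the rule, the members with the fewest IFNγ reads lay 24.3 kb from Ero1b (53.4 untreated reads), in Wdr25 (81.3) and in Slc8a1 (178), with 25.5 to 27.8 reads at 4 h of IFNγ. Just outside it were regions in E2f7, near Npw and in Snx12, whose IL-4 islands at 4 h held 20.4, 21.3 and 21.3 reads. Snx12 held 214 untreated and 515 IFNγ reads and was left out by that single small island. A missing island means fewer reads than the calling threshold and not 0; the 5th percentile of IL-4 islands at 4 h was 38.0 reads, close to the untreated value of the weakest members.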

How the data were processed

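H3K27ac ChIP-seq islands of 13 mouse macrophage libraries were analysed, with 1 library per condition and 14.3 to 37.4 M reads each. Per the submitters' processing notes, reads were aligned with Bowtie2 2.2.6 and islands called with SICER 1.1, and the builds mm10 and GRCm38 are named; the deposited files give a window of 200 bp, a gap of 600 bp and an FDR limit of 0.01. The deposited files hold, per island, a count of ChIP reads and of control reads, a fold over a common control as a ratio, a p-value and an FDR q-value, all by the authors. The total reads of each library, and 14110230 of the control, were worked out from the deposited folds. Control counts were equal at all 29680 islands that several files share.

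Islands overlapping by at least 1 bp were merged into regions, and counts were summed per region and scaled by size factors (median of ratios) over the 14347 regions called in every library. In ratios a library without an island was given its 5th percentile of reads per island. A difference between 2 libraries needed 2-fold and 50 reads in the higher; it has no test. The 6 knockdown libraries were fitted with edgeR 4.0.16 (R 4.3.3; quasi-likelihood test, Benjamini-Hochberg adjustment, 0.05) on the deposited counts summed per region, checked on simulated data, with DESeq2 1.42.0 as an alternative. Other steps used Python 3.11.15, pandas 2.3.3 and scipy 1.17.1. Genes and 250-base upstream sequences came from RefSeq (GRCm38.p6), where 17491 of 21896 protein-coding genes had a sequence.

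Named regions were the 12 strongest by the lower of untreated and 4 h IFNγ reads, the 6 strongest with no island in any IL-4 library, the 5 highest and 3 lowest ratios of IFNγ to untreated, up to 3 per gene list, the 3 strongest touching no gene, the 5 with the highest minimum over the knockdown libraries, the 3 nearest the rule's edge on each side, and 5 per direction from each edgeR term. The members, lists and rules were chosen with earlier results of these data known. Alternatives covered thresholds of FDR and reads, overlap, scaling, control subtraction, called length, gene distance, DESeq2 and leaving out each knockdown library in turn. Intervals cover counting error only. Sequences of islands were not analysed here, and 1 named region is not reported here.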

Additional observations from a re-analysis of the deposited data

How the results depend on the processing

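Of 129 values recomputed under other settings, 101 stayed within 1.5-fold (counts) or within the 95% binomial interval (shares) and 28 moved further. Counted as single untreated islands and not as merged regions, 1529 met the rule. These were covered by at least 50% by 4 h IFNγ islands and overlapped no 4 h IL-4 island. The number of members was 372 with at least 100 reads in both libraries. It was 1006 when adjacent islands were merged too, a setting chosen after seeing the data. The share called at 2 h of IL-4 was 23.1% and that in scramble cells with IFNγ 64.9% with an FDR of at most 1e-05. With at least 50 reads in both libraries the shares were 66.7% at 2 h of IFNγ and 72.6%, 73.4% and 75.0% in scramble, shJunB and shCEBPb cells with IFNγ. For IL-4 added to IFNγ at 2 h, 74 members were lower when called in both libraries, 29 were higher after control subtraction, and 7 were higher and 4 lower per kb of called length. For IL-4 against IFNγ at 2 h, 5 were higher with library totals, beside 14.0% of all regions. Another 3 settings gave 49 higher after control subtraction, 106 lower when called in both, and 0 higher and 51 lower per kb. For both cytokines from 2 h to 4 h, 79 (17.0%) were higher when called in both, beside 8.39% of all such regions. Per kb 6 were higher and 61 lower. In the edgeR fit 84 of 689 members were lower with IFNγ among regions called in at least 4 of 6 libraries, beside 4466 of all 20756 regions. Leaving out each library in turn gave 105 to 115 of 405 members higher and 34 to 36 lower with IFNγ. Over all 17047 regions it gave 2807 to 3042 higher and 2650 to 2953 lower. A lone library of a background was then assumed to vary like the others. For shJunB, library totals gave 3 higher and 1 lower and DESeq2 16 higher and 8 lower; for shCEBPb DESeq2 gave 2 higher. Within 10 kb, 17.0% of members had a gene start and 33.5% no gene. The settings that need an island in each of 2 libraries, or in more libraries, test other numbers of regions; otherwise the cause was not tested. The edgeR fit for IFNγ pairs the libraries of each shRNA background by its background term. For the other comparisons no paired analysis was possible because each condition has 1 library and the labels pair none by number.

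Absence of an island depends on the calling threshold and gives no count of reads, so losses near it were not measurable at this depth.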
